A study of Mus musculus with 31 samples.

Results

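CD4 and CD8 are the coreceptors by which T cells read antigen-presenting molecules, and 6 genes of this system were followed here. They were the coreceptor genes Cd4, Cd8a and Cd8b1 and the lineage regulators Runx3, Zbtb7b and Satb1. They were chosen by gene name and are 6 of 18192 genes named on the array, read by 17 of 45100 probe sets with values. All 6 were among the 13644 genes that passed a filter on low values. RNA was measured on 31 Affymetrix arrays from C57BL/6 mice of 3 genotypes of NDR1, a protein kinase encoded by Stk38. WT mice were wild type at this gene, HT mice heterozygous and KO mice homozygous for its disruption, and each genotype gave 4 arrays of untreated thymus, 2 female and 2 male. The same genotypes gave 5, 7 and 7 arrays of thymic tumors induced with N-ethyl-N-nitrosourea (ENU), an alkylating mutagen given at 100 mg/kg. All WT tumors were from females, while 1 HT tumor and 1 KO tumor were from males. Sample titles name thymocytes and tumor cells, whereas the tissue label is thymus. Every tumor came from an ENU-treated mouse and every thymus from an untreated one, so tumor state, ENU exposure and time since treatment cannot be told apart.

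Developing T cells carry both coreceptors at once in the double-positive stage, and then keep CD4 as helper cells or CD8 as cytotoxic cells. CD4 binds MHC class II and CD8 binds MHC class I, and both bring the kinase Lck to the T cell receptor. Runx3 silences Cd4 and supports Cd8 in the cytotoxic lineage. Zbtb7b, also called ThPOK, directs cells to the helper lineage and opposes Runx3. Satb1 organises chromatin in thymocytes and takes part in setting the expression of these lineage genes.

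RefSeq positions on mouse assembly GRCm38.p6 place Cd8b1 at chr6:71322788-71337492 and Cd8a close by at chr6:71373427-71379171. Cd4 lies farther along the same chromosome at chr6:124864693-124888247. Runx3 is at chr4:135120645-135177990, Zbtb7b at chr3:89377644-89393673 and Satb1 at chr17:51736187-51833290. The pattern TGNGGT is looser than the RUNX core, which is TGTGGT or TGCGGT. Searched on both strands (ACCNCA on the other), the looser pattern occurred in 45.8% of 32851 RefSeq promoter windows of 300 bases. The share for the stricter core was not counted. Promoters of Cd8a, Runx3 and Zbtb7b are shown because RUNX factors act in this circuit, and matches to the looser pattern are in capitals. The Cd8a window is chr6:71373177-71373476 (plus strand), with 1 match, 43 bases past the start. The window of the upstream Runx3 start is chr4:135120395-135120694 (plus strand), with 2 matches 134 and 126 bases before the start. The Zbtb7b window is chr3:89387622-89387921 (minus strand), with 3 matches.
Cd8a: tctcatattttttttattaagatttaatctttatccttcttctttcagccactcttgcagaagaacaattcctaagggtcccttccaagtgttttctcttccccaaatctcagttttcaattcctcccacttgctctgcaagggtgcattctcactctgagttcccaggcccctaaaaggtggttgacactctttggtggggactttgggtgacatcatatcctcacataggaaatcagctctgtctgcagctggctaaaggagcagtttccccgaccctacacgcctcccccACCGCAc
Runx3: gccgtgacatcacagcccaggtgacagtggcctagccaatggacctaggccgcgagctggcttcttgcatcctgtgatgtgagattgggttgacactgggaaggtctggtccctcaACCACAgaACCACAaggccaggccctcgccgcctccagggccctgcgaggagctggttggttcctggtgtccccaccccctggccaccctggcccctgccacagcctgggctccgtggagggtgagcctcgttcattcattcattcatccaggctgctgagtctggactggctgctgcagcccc
Zbtb7b: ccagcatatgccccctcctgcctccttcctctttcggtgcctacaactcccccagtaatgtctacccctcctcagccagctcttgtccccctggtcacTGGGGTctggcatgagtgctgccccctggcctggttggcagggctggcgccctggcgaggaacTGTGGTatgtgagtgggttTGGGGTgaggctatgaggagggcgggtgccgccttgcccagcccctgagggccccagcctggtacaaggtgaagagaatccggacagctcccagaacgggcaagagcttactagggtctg
The other windows of Runx3 (chr4:135152295-135152594) and Zbtb7b (chr3:89393329-89393628) held no match. A match here is a run of letters and not a binding site.

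Values below are log2(intensity + 1), errors are SDs unless named otherwise, and differences are tumor minus thymus in limma, averaged over the 3 genotypes. A gene was called at a Benjamini-Hochberg adjusted p under 0.05 over all 13644 genes. The labels do not say whether each array is a separate animal, so the p-values measure the spread between these arrays. Stk38, the disrupted gene, read 11.86 ± 0.148 (n = 4) in WT thymus, 11.44 ± 0.115 in HT and 10.92 ± 0.329 in KO, where it was lower by limma (-0.94, SE 0.0960, adjusted p = 0.00111). KO tumors ranged from 8.73 to 13.08 and WT tumors from 11.38 to 13.04, and their difference did not pass (adjusted p = 0.872). The sources used here do not say which stretch of Stk38 is disrupted, so its residual signal does not check a label. The mean over 7 T cell identity genes was 12.99 to 13.20 in thymi and 11.26 to 12.65 in tumors, so every tumor lay below every thymus. Control transcripts gave a 3' signal over a 5' signal, which follows RNA integrity in assays primed at the 3' end. The labels name a whole-transcript labelling assay, so what this ratio measures here is not settled. In log2 it was 0.336 ± 0.0678 (n = 12) in thymi and 1.33 ± 1.17 (n = 19) in tumors, and 15 of 19 tumors lay above the highest thymus.

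All 3 coreceptor genes fell in tumors, Satb1 fell and Runx3 rose, while Zbtb7b did not pass the test. That is 5 of 6 genes called, where 24.7% of all genes tested were called, 11.9% higher and 12.8% lower in tumors. In the same 5 genes, each read by its probe set of highest mean, no tumor overlapped any thymus. Read the same way, that held for 2.76% of all genes (1.87% with tumors lower and 0.894% with tumors higher). Some other probe sets of Cd8a, Runx3 and Satb1 did overlap, as given below. In bulk RNA, fewer cells of a type and less RNA per cell cannot be told apart.

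**Figure D1:**
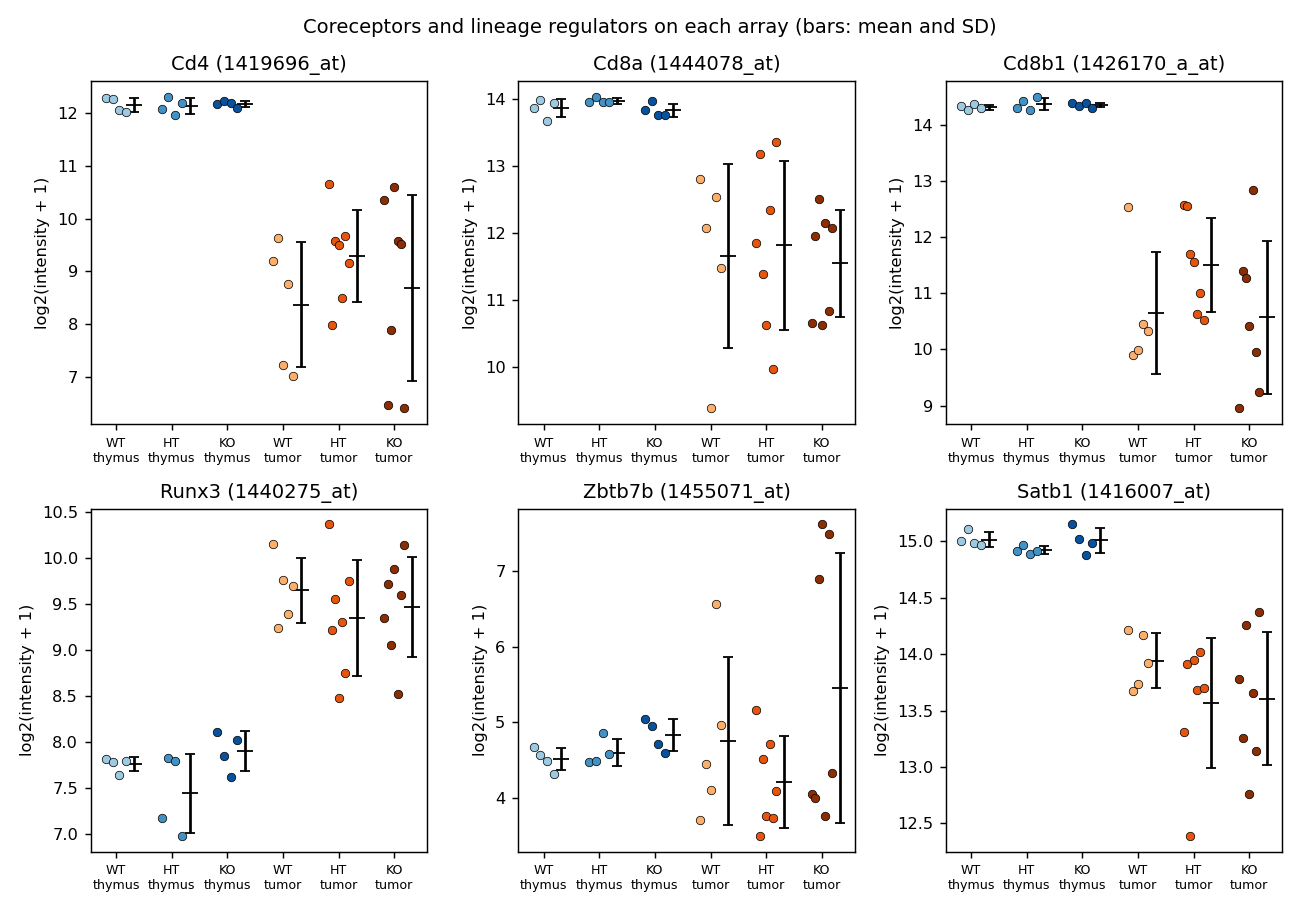
Level of each gene (log2 intensity + 1, vertical axes, scaled per gene) on all 31 arrays by genotype and tissue, with 1 point per array and bars for the group mean and SD. The 19 tumors lie below the 12 thymi for Cd4, Cd8a, Cd8b1 and Satb1, above them for Runx3, and on both sides for Zbtb7b.

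Cd4 encodes the helper coreceptor. The 4 thymi read 12.29, 12.27, 12.07 and 12.02 in WT, 12.08, 12.32, 11.98 and 12.19 in HT, and 12.19, 12.23, 12.19 and 12.11 in KO. WT tumors read 9.20, 9.64, 7.22, 8.76 and 7.01. HT tumors had a lowest value of 7.98, a median of 9.50 and a highest of 10.66, and KO tumors 6.398, 9.52 and 10.61. Every tumor was below every thymus, with 1.32 between the nearest pair. The difference was -3.59 (SE 0.430, limma adjusted p = 9.09e-07), or 12.02-fold lower. Group means ran from KO, WT and HT thymus (12.18, 12.16 and 12.14) to HT, KO and WT tumors (9.29, 8.69 and 8.37), and neighbours within a tissue did not differ beyond their spread.

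Cd8b1 encodes the beta chain of CD8. Thymi were nearly level, at 14.31 ± 0.0436 in WT, 14.37 ± 0.111 in HT and 14.35 ± 0.0416 in KO (n = 4 each). WT tumors read 12.54, 9.90, 9.998, 10.44 and 10.33. HT tumors ran from 10.53 through a median of 11.56 to 12.56, and KO tumors from 8.95 through 10.41 to 12.83. Here too no tumor reached a thymus, the nearest pair being 1.42 apart. The difference was -3.36 (SE 0.365, limma adjusted p = 1.86e-07), or 10.3-fold lower. WT tumor 01 stood far above the other 4 WT tumors.

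Cd8a encodes the alpha chain of CD8, which can also pair with itself. Thymi read 13.86 ± 0.140 in WT, 13.97 ± 0.0417 in HT and 13.83 ± 0.0950 in KO (n = 4 each). WT tumors read 12.81, 12.08, 9.39, 12.53 and 11.49. HT tumors ran from 9.98 through 11.86 to 13.36, and KO tumors from 10.64 through 11.96 to 12.51. The tumors were below all thymi, but the nearest pair was only 0.31 apart. The difference was -2.31 (SE 0.371, limma adjusted p = 5.53e-05), or 4.94-fold lower.

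Runx3 encodes the transcription factor of the cytotoxic lineage. WT thymi read 7.81, 7.78, 7.65 and 7.79, HT thymi 7.18, 7.83, 7.80 and 6.98, and KO thymi 8.11, 7.85, 7.62 and 8.03. WT tumors read 10.15, 9.24, 9.76, 9.39 and 9.69. HT tumors ran from 8.48 through 9.30 to 10.36, and KO tumors from 8.52 through 9.59 to 10.14. Every tumor was above every thymus, by at least 0.38. The difference was 1.70 (SE 0.191, limma adjusted p = 3.04e-07), or 3.25-fold higher.

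Zbtb7b encodes the helper lineage factor. Its signal lay close to the array median of 4.39 in thymi, at 4.51 ± 0.148 in WT, 4.60 ± 0.180 in HT and 4.83 ± 0.210 in KO (n = 4 each). WT tumors read 3.71, 4.44, 4.11, 6.57 and 4.96. HT tumors ran from 3.49 through 4.09 to 5.17. KO tumors read 4.05, 3.99, 6.89, 7.62, 3.76, 7.49 and 4.33. The 4 tumors WT 04, KO 03, KO 04 and KO 06 stood at 6.57 or more, and the other 15 at 5.17 or less. The mean difference was -0.03 (95% confidence interval -0.88 to 0.82, limma adjusted p = 0.966), with 9 tumors below, 5 within and 5 above the range of the thymi. The second Zbtb7b probe set, 1420663_at, read 4.12, 4.18, 4.96 and 4.62 in those 4 tumors and had its highest value, 5.27, in HT tumor 01.

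Satb1 encodes the chromatin organiser. Thymi read 15.02 ± 0.0644 in WT, 14.92 ± 0.0326 in HT and 15.01 ± 0.112 in KO (n = 4 each). WT tumors read 14.22, 13.67, 13.74, 14.17 and 13.92. HT tumors ran from 12.39 through 13.70 to 14.02, and KO tumors from 12.76 through 13.66 to 14.38. No tumor reached a thymus, with 0.50 between the nearest pair. The difference was -1.30 (SE 0.176, limma adjusted p = 5.74e-06), or 2.46-fold lower.

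The same 5 genes were called within each genotype, where 6.87% of genes were called in WT, 3.53% in HT and 4.94% in KO. In the order WT, HT and KO, the log2 differences were -4.05, -3.03 and -3.68 for Cd4. They were -3.57, -2.80 and -3.71 for Cd8b1, and -2.32, -2.23 and -2.36 for Cd8a. Satb1 differed by -1.10, -1.37 and -1.42, and Runx3 rose by 1.79, 1.83 and 1.49. Zbtb7b differed by 0.01, -0.55 and 0.45 with no call. The Cd8a call was lost in WT without any 1 of the 4 WT thymi or WT tumor 03 or 05, in HT without any 1 of the 4 HT thymi or HT tumor 04, and in KO without thymus F_01 or F_02. The Satb1 call in WT was lost without any 1 of the WT thymi or WT tumor 02. These fits used 1 spread per gene shared by thymi and tumors, although the Cd8a SD was 0.101 in thymi and 1.14 in tumors. A call lost without 1 thymus thus does not show that the call rests on the value of that thymus. The interaction with genotype called 0 genes (0%) in limma, with 142 genes at unadjusted p under 0.05 when HT was set against WT and 111 when KO was, and none of the 6 genes was among those.

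Between genotypes within a tissue no member was called by limma. In thymus 0.191% of genes were called between KO and WT, 0.022% between HT and WT, and 0.0586% between KO and HT. At unadjusted p under 0.05 there were 688, 928 and 1158 genes in the same order, with 1, 0 and 1 of the 6 genes among them. Zbtb7b in thymus differed by 0.32 between KO and WT, KO being higher (SE 0.121, unadjusted p = 0.0229, adjusted p = 0.846). Runx3 was 0.45 higher in KO than in HT thymus (SE 0.181, unadjusted p = 0.0287, adjusted p = 0.538). The intervals in thymus were narrow for the coreceptors, such as -0.16 to 0.19 for Cd4 and -0.12 to 0.20 for Cd8b1 in KO against WT. Among tumors 0% of genes were called in each pair, with 462 genes at unadjusted p under 0.05 between KO and WT, 382 between HT and WT, and 150 between KO and HT. The intervals were wide there, such as -1.09 to 2.07 for Cd4 and -0.66 to 2.36 for Zbtb7b in KO against WT.

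The probe sets of a gene did not all move alike. Among all 31597 probe sets fitted, 22.2% were called, 9.54% higher and 12.7% lower. Of the 17 probe sets of these genes, 13 were called, 12 of them lower and 1 higher. The second Cd4 probe set, 1427779_a_at, fell by 4.93 (SE 0.506, limma adjusted p = 1.004e-07). The 5 Cd8a probe sets all fell, with differences from -3.63 to -1.61. The 2 annotated with "x" in their names, a mark for probes that can match several transcripts, had 1 tumor within and 1 above the range of the thymi. The second Runx3 probe set, 1421467_at, lay below the array median in all groups on average and differed by 0.08 (SE 0.0952, adjusted p = 0.587). By it 16 of 19 tumors lay within the range of the thymi, so the rise of Runx3 rests on 1440275_at. With both probe sets averaged the rise was 0.89 (limma adjusted p = 8.47e-07), which carries that of 1440275_at and is no separate support. Of 5 Satb1 probe sets 4 fell, with differences from -2.05 to -1.30, and 1439449_at differed by -0.90 (SE 0.469, adjusted p = 0.168). By 1439449_at 10 tumors lay below, 5 within and 4 above the range of the thymi. By 1439315_at 14 lay below and 5 within.

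**Figure D2:**
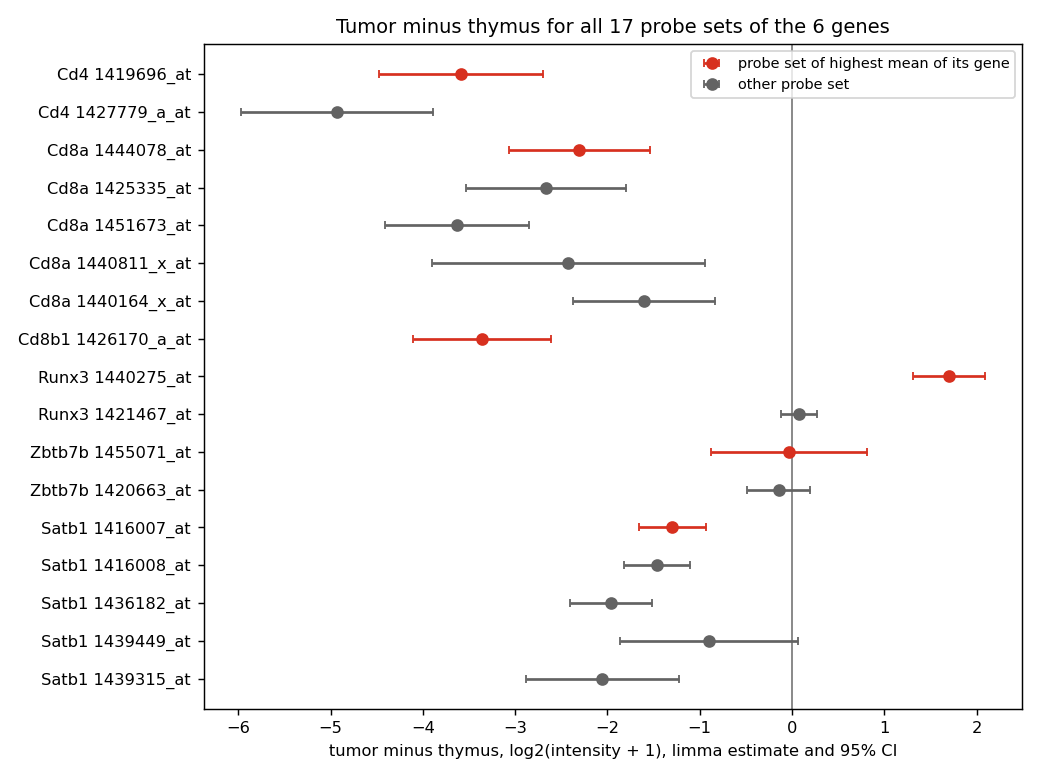
Tumor minus thymus (log2 intensity + 1, horizontal axis) from limma for the 17 probe sets, with 95% confidence intervals, and the probe set of highest mean of each gene in red. Cd4, Cd8a and Cd8b1 lie to the left of 0 throughout, and only 1440275_at of Runx3 lies to the right with an interval clear of 0.

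Tumors varied more than thymi in all 6 genes. The SD within groups went from 0.1203 to 1.34 for Cd4 (11.2 times), from 0.101 to 1.14 for Cd8a (11.3 times) and from 0.0730 to 1.12 for Cd8b1 (15.3 times). It went from 0.181 to 1.28 for Zbtb7b, from 0.0768 to 0.518 for Satb1 and from 0.281 to 0.538 for Runx3 (1.91 times). The median over all genes tested was 0.195 in thymi and 0.648 in tumors, and the median ratio was 3.38. The tumor SD of Cd4 exceeded that of 86.7% of genes, and that of Satb1 exceeded 36.6%.

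Single tumors combined the coreceptors in many ways, with Cd4 read by 1419696_at. Over the 19 tumors that probe set went only loosely with the second, 1427779_a_at (r = 0.432, rho = 0.567, permutation p = 0.0633 and 0.0128). KO tumor 07 was low in both Cd4 (6.398) and Cd8b1 (9.23), and its 3' to 5' control ratio was high (3.17 in log2). KO tumor 01 kept more Cd4 (10.35) with the lowest Cd8b1 (8.95). KO tumor 02 had little Cd4 (6.47) with Cd8b1 at 11.40, and HT tumor 01 was high in both (10.66 and 12.56). The difference Cd8b1 minus Cd4 ran from 1.99 to 2.31 in thymi and from -1.40 to 4.93 in tumors, with 8 tumors below and 8 above the range of the thymi. Its mean was 2.18 in thymi and 2.11 in tumors (permutation test, adjusted p = 0.996).

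**Figure D3:**
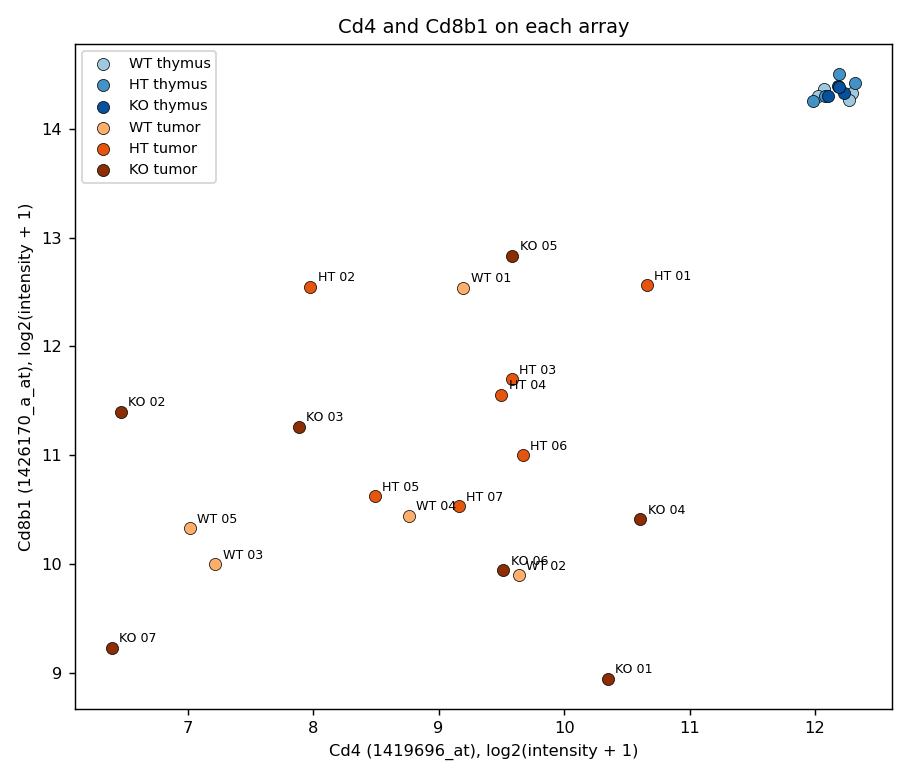
Cd4 (horizontal axis) against Cd8b1 (vertical axis), both log2 intensity + 1, with 1 point per array coloured by group and each tumor named. The 12 thymi form a tight group at high levels of both, and the tumors are scattered below and to the left.

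Cd8b1 and Cd4 were also set against the T cell receptor genes of the same array, as the difference from the mean of Cd3d, Cd3e and Cd3g. Tests of this kind were 2-sided and adjusted over 56, of which the 8 of tumor against thymus were permutation tests of 100000 resamples and the 48 between genotypes were exact. Cd4 minus the Cd3 mean was -1.41 ± 0.111 in thymi and -3.93 ± 1.43 in tumors (adjusted p = 0.000187), and 19 of 19 tumors lay below all thymi. Cd8b1 minus the Cd3 mean was 0.769 ± 0.0874 in thymi and -1.82 ± 1.15 in tumors (adjusted p = 0.000187), again with 19 of 19 below. The share of all genes whose difference from the Cd3 mean separates the tissues was not counted. Cd8a minus the Cd3 mean was 0.313 ± 0.0791 and -1.08 ± 1.33 (adjusted p = 0.00784), with 15 of 19 below and 1 above. That is a difference of -1.39 by probe set 1444078_at, and by 1451673_at it was -2.81 (permutation adjusted p = 0.00014, tumor mean -2.52). The unadjusted p of the first 2 was 1e-05, the smallest these resamples can give. Runx3 minus Zbtb7b was 3.06 ± 0.310 in thymi and 4.66 ± 1.33 in tumors, which carries the rise of Runx3 already given, since Zbtb7b lay near the array median and its mean differed by -0.03. No genotype comparison of these measures passed, the smallest adjusted p being 0.400 by exact permutation.

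**Figure D4:**
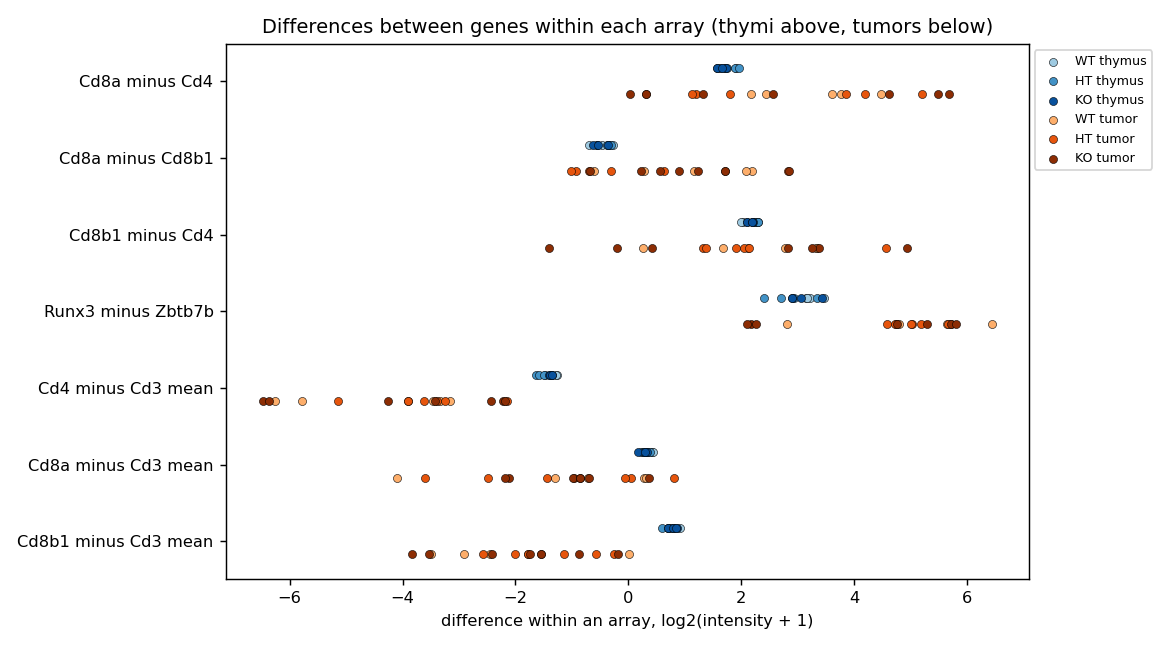
Differences between genes within each array (log2 scale, horizontal axis), thymi on the upper and tumors on the lower line of each measure, with 1 point per array. The tumors lie wholly to the left of the thymi for Cd4 and Cd8b1 minus the Cd3 mean, and on both sides for the differences between coreceptors.

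The gap between the CD8 chains depended on the Cd8a probe set. Cd8a minus Cd8b1 was 1.20 higher in tumors by 1444078_at (permutation test, adjusted p = 0.0242) and -0.22 by 1451673_at (adjusted p = 0.619). Over the 19 tumors 1451673_at went with Cd8b1 (r = 0.888, rho = 0.858, permutation adjusted p = 0.00011 and 0.000165, 11 relations), while 1444078_at did not pass (r = 0.363, rho = 0.304, adjusted p = 0.155 and 0.2504). The 2 probe sets differed by 0.0271 ± 0.148 in thymi and by 1.44 ± 1.10 in tumors. That difference rose with the 3' to 5' control ratio over the tumors (r = 0.878, rho = 0.884, permutation adjusted p = 0.00011 and 0.000165), and r was 0.844 without the 2 tumors farthest from the median ratio. These relations were looked at after the probe sets were seen to disagree. With the ratio as a covariate the Cd8a difference by 1444078_at was -2.69 (limma adjusted p = 7.06e-06). Satb1 probe set 1439449_at also rose with the ratio (r = 0.704, rho = 0.721, permutation adjusted p = 0.00105 and 0.00335, 5 relations). Cd8a probe sets 1440811_x_at (r = 0.596, rho = 0.614, permutation adjusted p = 0.0177 and 0.0231) and 1440164_x_at (r = 0.599, rho = 0.489, adjusted p = 0.0169 and 0.0985) rose with the ratio too. Probe set 1451673_at (r = -0.385, adjusted p = 0.137) and Cd8b1 (r = -0.411, adjusted p = 0.202 over 18 relations) leaned down with it and did not pass. The part of the ratio in their r of 0.888 was not tested.

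**Figure D5:**
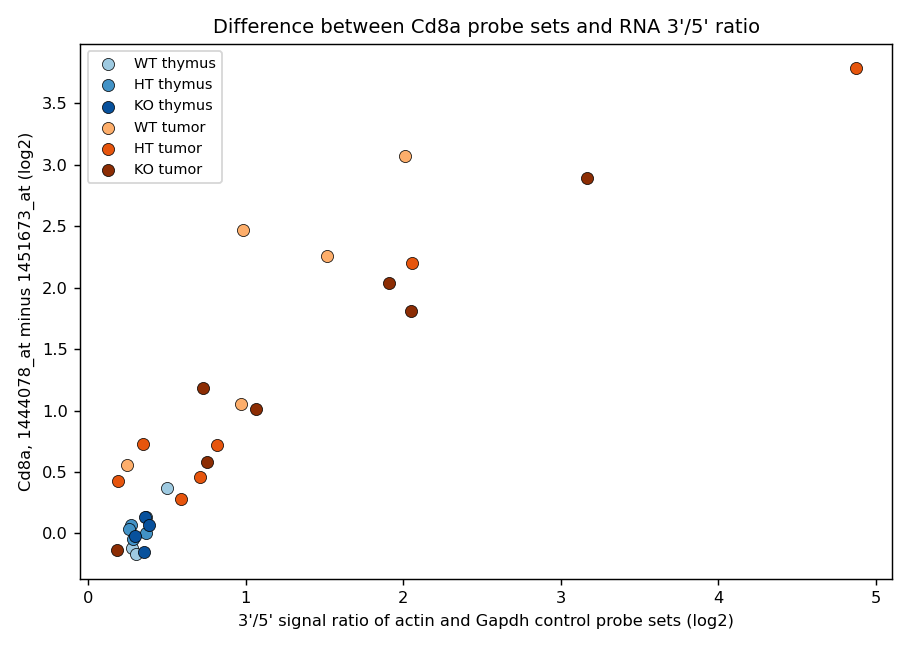
Difference between Cd8a probe sets 1444078_at and 1451673_at (log2, vertical axis) against the 3' over 5' signal of control transcripts (log2, horizontal axis), with 1 point per array coloured by group. The thymi lie together near 0, and the tumors run up to 3.78 with rising ratio.

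Over the 19 tumors none of 15 pairs of the 6 genes was related after adjustment, with permutation adjusted p of 0.649 or more for r. Each gene was read here by its probe set of highest mean, and for the CD8 chains the outcome depended on that choice. Cd8a read by 1451673_at did go with Cd8b1 (r = 0.888, rho = 0.858), as given above. Cd4 and Cd8b1 had r = 0.167 and rho = 0.126, and 0.0595 without 2 tumors. Cd4 and Satb1 had r = -0.395 and rho = -0.433. By the Zbtb7b probe set of highest mean, a gap lay between 15 lower and 4 high tumors, and the tumors were cut there. By the other Zbtb7b probe set these 4 tumors did not stand apart, as given above. The 15 lower tumors read 3.49 to 5.17, around the array median of 4.39. In them Runx3 and Zbtb7b had r = 0.496 and rho = 0.389 (permutation adjusted p = 0.305 and 0.383, 5 relations). Over all 19 tumors Zbtb7b was lower where the T cell identity mean was higher (r = -0.737, rho = -0.751, permutation adjusted p = 0.0169 and 0.00684, 18 relations). With the mean of 5 B cell markers it had r = 0.667 and rho = 0.542 (adjusted p = 0.0260 and 0.106), and r = 0.360 without 2 tumors. With the 3' to 5' control ratio it had r = 0.226 and rho = 0.553 (permutation adjusted p = 0.643 and 0.106). The 15 lower tumors are part of the 19 and were chosen by their Zbtb7b values, so they give no separate support. In them Zbtb7b was lower where the T cell identity mean was higher (r = -0.628, rho = -0.664, permutation adjusted p = 0.0257 and 0.0274, 3 relations, r = -0.674 without 2 tumors). There it had r = 0.600 and rho = 0.407 with the B cell mean (adjusted p = 0.0257 and 0.133), and r = 0.402 without 2 tumors. Of the 4 high tumors, KO 04 and KO 06 had B cell means of 11.76 and 12.13, KO 03 had 9.04 and WT 04 had 4.802, against 5.12 to 6.22 in thymi. Of the lower tumors, HT 01 and HT 03 had B cell means of 11.52 and 9.82 with Zbtb7b at 5.17 and 4.51. The part of these cells in the Zbtb7b signal was not tested. Satb1 was lower where the B cell mean was higher (r = -0.627, rho = -0.496, permutation adjusted p = 0.0273 and 0.129, 18 relations, r = -0.474 without 2 tumors). Without the 4 tumors richest in B cell markers Satb1 still fell by 1.16 (limma adjusted p = 2.41e-08).

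The genes most like each member over the 19 tumors, by Pearson r among 13643 genes and with no test, were as follows. Cd4 was most like Gcgr (0.743), Fbxw8 (0.724) and Cnr2 (0.713). Cd8a was most like Ptpn13 (0.895), Mtmr10 (0.860) and Fhl2 (0.826), and Cd8b1 like Cldn10 (0.739), Gng12 (0.732) and Psma8 (0.727). Runx3 was most like Gm2a (0.757), Kbtbd11 (0.736) and Itgb3 (0.731). Zbtb7b was most like Phf1 (0.895), Snx8 (0.883) and Neurl3 (0.863), and Satb1 like Scmh1 (0.864), Trim28 (0.856) and Ipo9 (0.841). Without the 2 tumors farthest from each member's median, r ran from 0.617 (Runx3 with Kbtbd11) to 0.855 (Cd8a with Mtmr10). Cd8a was read here by 1444078_at, which had r = 0.488 with the 3' to 5' control ratio (permutation adjusted p = 0.0711, 11 relations). The part of that ratio in these likenesses was not tested.

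Other genes of the pathway are given from fixed lists, beside a median difference of 0.05 over all genes, of which 11.9% rose and 12.8% fell. Of 17 other lineage regulators tested, 1 rose and 2 fell (median -0.10), no more than those shares. Chd4, a chromatin remodeller that acts on Cd4, rose by 1.25 (SE 0.311, limma adjusted p = 0.00442). Ets1 fell (-0.68) and so did Ikzf1 (-0.35), both lymphoid transcription factors. Of 10 cytotoxic lineage genes none passed (median 0.35), and the smallest p were those of Nkg7 at -1.90 (adjusted p = 0.126) and Prf1, the pore protein, at 1.002 (adjusted p = 0.137). Of 6 genes listed with the helper lineage 4 fell and none rose (median -2.60). They were Socs1 (-3.24), a cytokine signal inhibitor, and the receptors Cd5 (-3.26), Cd28 (-2.40) and Cd6 (-2.80), which other T cells carry too. Of 9 genes of positive selection and cytokine signal 6 fell (median -2.19), among them Stat5b (-0.85), Egr1 (-3.64), Egr2 (-3.39) and Cd69 (-3.25). Of 7 double-positive thymocyte genes 3 fell (median -1.20), namely the recombinase genes Rag2 (-3.39) and Rag1 (-2.30) and Themis (-1.28). Of 7 T cell identity genes 5 fell (median -0.68), among them Cd247 (-1.72), Cd3d (-0.98), Cd3g (-0.93) and Zap70 (-0.52).

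Some marker lists of other cells moved with the comparison, against the same shares of 11.9% and 12.8%. Of 5 fibroblast markers 4 rose, among them Col1a2 (4.17) and Col3a1 (3.17), and their mean was 3.68 to 5.58 in thymi and 4.44 to 8.60 in tumors. Of 4 thymic epithelium markers 3 fell, among them Prss16 (-5.68), and the mean of all 5 with values was 4.23 to 7.66 in thymi and 3.57 to 4.38 in tumors. Of 5 macrophage markers Cd68 rose (0.88), of 4 neutrophil markers S100a9 fell (-3.18) and of 2 erythroid markers Alas2 fell (-2.38). None of 4 B cell, 4 dendritic cell or 3 NK cell markers passed, with the smallest p at Blk (1.90, adjusted p = 0.0661), Zbtb46 (-0.47, adjusted p = 0.138) and Klrd1 (-2.19, adjusted p = 0.0657). Their part in the falls of the coreceptors was not tested, beyond the differences from the Cd3 mean above. Without the 4 tumors richest in B cell markers the differences were -3.80 for Cd4, -2.20 for Cd8a, -3.39 for Cd8b1 and 1.62 for Runx3.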

How the data were processed

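RNA of 12 thymus and 19 tumor arrays was deposited by the authors as 1 linear intensity per probe set, made with GCRMA per the submitters' processing notes (version not given in the sources used here). Every array had the same median of 20.0, so overall shifts between arrays cannot be seen. The labels' protocol names a whole-transcript labelling assay. Values were taken as log2(value + 1). Probe sets naming 1 gene (34944) were kept and each gene was read by its probe set of highest mean. Genes above the 25th percentile of the mean (3.65) were tested, 13644 of 18192 (75.0%). Gene names came from the platform annotation, with 99.4% of Entrez genes in a RefSeq table of GRCm38.p6. Fits used limma 3.58.1 in R 4.3.3 with sex as a covariate, within thymi, within tumors or over all 31 arrays. The fit over all 31 arrays used 1 spread per gene shared by both tissues. The fits were checked on simulated data. Permutation tests were written with NumPy 2.4.6, with ranks from SciPy 1.17.1. The number of arrays limits the precision.

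The 6 genes and the lists were chosen with earlier results of these data known. Beside the 6 genes, the text names the 3 genes most like each over the tumors, and of each list up to 4 genes of smallest p past the threshold, or 2 where none passed. Alternatives were the pseudocount (16), the filter, the mean of probe sets, no sex term, quantile normalization, array weights, the 3' to 5' ratio as a covariate, female arrays only, tumors rich in B cell markers left out, each array left out and the replicate block. Same-numbered thymi deviated together in all 12 pairs (correlations 0.388 to 0.585), as the numbers include sex, and 10 of 12 pairs did so above 0.1 within genotype and sex. Each genotype and sex holds 2 thymi, so there the pairs of 01 and of 02 give the same values and are not separate evidence. Same-numbered tumors were above 0.1 in 3 of 17 pairs.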

Additional observations from a re-analysis of the deposited data

Results flagged for a closer look

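In 36 sets of 1 gene in 1 group, 2 had an array far from the others, where chance marks about 1 in 20. Cd8a in HT thymus replicate F_02 was 14.03, above the other 3 HT thymi by 0.839 of the range of the group. Cd8b1 in WT tumor replicate 01 was 12.54, above the other 4 WT tumors by 0.793 of the range.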

How the results depend on the processing

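In tumor minus thymus the 5 calls held under every alternative run, and Zbtb7b was called under none that tested it (it did not pass a filter at the median of the gene means). Quantile normalization left the estimates nearly the same (Cd4 -3.58743 against -3.58742) and the filters did not change them, so these are no separate checks. With each array left out in turn, Cd4 ranged from -3.70 to -3.28, Cd8a from -2.41 to -2.12, Cd8b1 from -3.52 to -3.29, Runx3 from 1.63 to 1.82 and Satb1 from -1.37 to -1.24. Within genotypes, 5 members were called in each, but 2 in WT, 1 in HT and 1 in KO with female arrays only, which leave 2 thymi per genotype. Leaving out 1 array gave 3 to 5 called members in WT. Cd8a minus Cd4 was 1.13 higher in tumors (permutation adjusted p = 0.361) and 1.60 without the 4 tumors rich in B cell markers (permutation adjusted p = 0.0380). With Cd8a read by 1451673_at, an alternative chosen after seeing the data, it turned to -0.29 (permutation adjusted p = 0.912) and Cd8a minus Cd8b1 to -0.22. The counts of all genes called in tumor minus thymus, 3374 in the fit reported, were 6443 with array weights and 1471 with female arrays only. With the replicate block no member was called between genotypes, and the counts of genes called were 23 (KO and WT), 3 (HT and WT) and 8 (KO and HT) in thymus, where they were 26, 3 and 8 without it. Among tumors, whose numbers do not pair them, the block gave 1 gene for KO against WT and 0 for the other pairs. Without the sex term the thymus counts were 17, 1 and 3. The number of arrays and the signal near the array median limit what can be said of Zbtb7b and of Runx3 probe set 1421467_at.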
